A study of Rattus norvegicus with 8 samples.

Results

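The transcripts described here were measured by array probes that the design ties to a single GenBank cDNA record and to no RefSeq model. They were chosen by the record's name: all probes that are not controls and whose accession starts with BC, AY, AF, AJ or AB followed directly by digits. The rule used no measured value. It found 1590 of the 24684 transcripts on the array, each with 1 probe printed as 3 spots. BC records made up 861 of them, AY 262, AF 248, AJ 132 and AB 87. None of the 1590 accessions stood in the RefSeq gene table used here, so the records are named by accession alone and their gene names and sequences are not given. Whether a record is coding or noncoding is not stated for any of them.

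GenBank accession prefixes record where and how a sequence entered the shared nucleotide databases. BC marks cDNA clones of the Mammalian Gene Collection, a project that sequenced clones holding full coding sequences. AF and AY mark records that laboratories submitted directly to GenBank, AJ those submitted through the European archive and AB those submitted through the Japanese one. Numbers were handed out in order of submission, so records with neighbouring numbers often came from one submission.

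The samples were total RNA of full-thickness skin, taken from male rats of the outbred Sprague-Dawley strain and hybridised in 1 colour (Cy3) to Agilent arrays. The STZ group had received 60 mg/kg streptozotocin, a drug toxic to pancreatic beta cells, the source of insulin, intraperitoneally at 4 weeks of age. The sham group had received sodium citrate solution, and skin of both groups was taken at 8 weeks of age, 4 weeks after treatment. The treatment protocol mentions a cutaneous wound after that interval and does not say whether the skin measured had one. GEO lists 4 samples in each group and speaks of 4 sham-treated rats. Within each group, however, samples 1 and 3, and samples 2 and 4, were 2 scans of one array. Over the members, the SD of the difference was 0.106 to 0.145 on the log2 scale between such scans and 0.835 to 1.20 between arrays of one group. The scans were averaged, which left sham arrays 1 and 2 and STZ arrays 1 and 2. P-values measure only the spread between these arrays, and the labels do not say which rats each array held. With 2 arrays against 2, an exact two-sided permutation test of a single value cannot give a p below 0.333.

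Each value below is a log2 signal relative to the 75th percentile of its own array, so 0 is a signal brighter than most spots. That percentile was an intensity of 1138 to 1336 in the sham scans, of 1481 and 1496 in the scans of STZ array 1, and of 606 and 624 in those of STZ array 2. STZ array 2 thus had the lowest overall signal. It also had the most transcripts well above background, the scanner software's own call that a spot exceeds its surroundings by a set margin. Of all transcripts, 83.1% and 82% were well above background on sham arrays 1 and 2, 85.7% on STZ array 1 and 91.6% on STZ array 2. All 4 arrays lay on 1 slide. No spot was saturated. A signal compares one transcript between arrays, and levels of different transcripts also carry differences between their probes.

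Markers of several skin cell types differed between the groups. Of 12 genes that mark hair shaft or inner root sheath, 10 were on the array and all 10 were lower in STZ at an unadjusted p below 0.05. Their summed signal, in units of the 75th percentile, was 720 and 753 on the sham arrays, 97.2 on STZ array 1 and 5.40 on STZ array 2. The 6 neutrophil markers found were higher in STZ, 5 of them at that threshold, with sums of 1.61 and 1.43 against 58.9 and 66.1. These sums were mostly S100a8, at a log2 signal of 0.46 and 0.28 in sham and 5.78 and 6.01 in STZ skin. The log2 differences of the other neutrophil markers ran from 1.57 for Ngp to 4.54 for Csf3r. All 9 macrophage markers and all 9 T and NK cell markers were higher, 8 and 9 of them past the threshold, and of 4 B and plasma cell markers 3 were higher, 2 of them past it. The B and plasma cell sum was 0.457 and 0.473 on the sham arrays, 0.29 on STZ array 1 and 1.04 on STZ array 2. Adipocyte and erythroid markers were lower, 4 of 7 and 6 of 6 of them past the threshold. In such bulk tissue, fewer cells of a type and less RNA per cell cannot be told apart. The part of these cell types in the differences of the members was not tested.

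Most of the 1590 transcripts gave a signal in skin. In at least 4 of the 8 samples 1410 of them, 88.7%, were well above background, against 87.2% of all transcripts on the array. In all 8 samples 1274 were, 80.1% against 78.7%. In no sample were 89, 5.6% against 4.89%. The group as a whole was therefore seen about as often as the rest of the array.

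Detection differed by prefix. BC records were seen most often: 821 of 861, 95.4%, passed in at least 4 samples and 15 passed in none. AJ records were seen least: 75 of 132, 56.8%, passed and 41, or 31.1%, were above background in no sample. Between these lay AF with 224 of 248 (90.3%), AB with 76 of 87 (87.4%) and AY with 214 of 262 (81.7%). RefSeq mRNA accessions, for comparison, passed for 90.8% of 15321 transcripts.

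Signal level followed the same order at its ends. The median over the 4 arrays was -1.27 for BC records, -3.74 for AB, -3.92 for AF, -4.55 for AY and -6.15 for AJ. Over all transcripts it was -2.57, and over the 1590 it was -3.0. Of BC records 319, or 37%, had a mean level above the 75th percentile of the array, against 30.3% of all transcripts. For AY the share was 14.5%, for AF 11.3%, for AB 10.3% and for AJ 3.79%, which is 5 records. The 3 spots of a record agreed more closely where signal was high: their median SD was 0.0936 for BC and 0.166 for AJ. A BC record in skin was thus typically a moderately bright transcript, and an AJ record one near or below the limit of the assay.

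**Figure D1:**
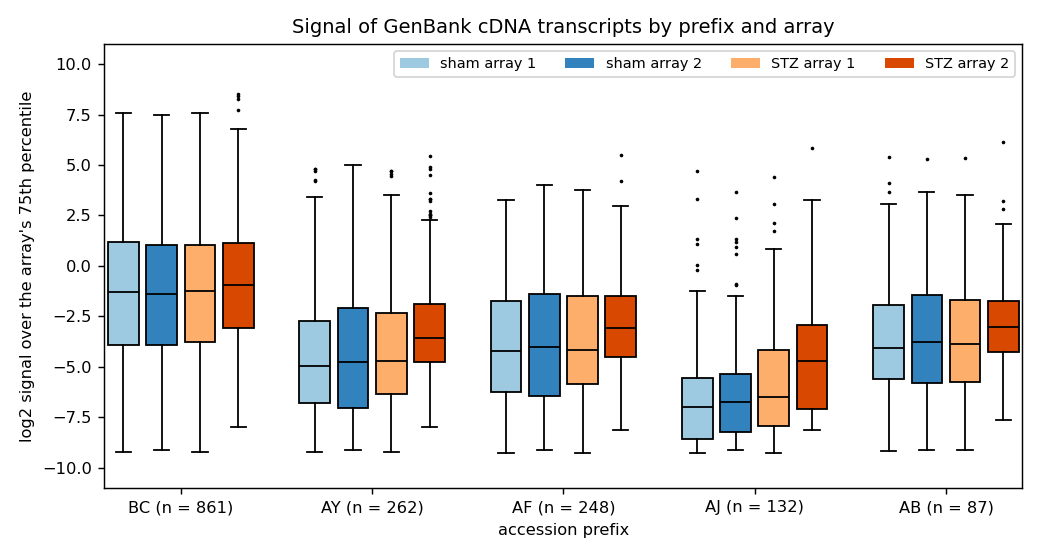
Log2 signal over the array's 75th percentile (y axis) of the 1590 GenBank cDNA transcripts by accession prefix (x axis) on each of the 4 arrays, with the median as a line, the quartiles as a box and whiskers to the last value within 1.5 box lengths. BC records sat highest on every array, with medians of -1.31, -1.38, -1.24 and -0.95, and AJ records lowest, with medians of -6.98, -6.74, -6.51 and -4.72.

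The arrays did not see the members equally. Well above background were 84.4% of them on sham array 1, 83.4% on sham array 2, 87.5% on STZ array 1 and 91.3% on STZ array 2. For AY records the shares were 74%, 73.3%, 79.8% and 91.2%, and for AJ records 50%, 50.8%, 56.8% and 59.1%. Members seen on a single array numbered 1, 3 and 2 on sham array 1, sham array 2 and STZ array 1, but 54 on STZ array 2, 25 of them AY records. The last is 3.4% of the members, against 4.77% of all transcripts. All 5 prefixes had their highest median level on STZ array 2. The median of AY records was -4.98, -4.79 and -4.71 on the other arrays and -3.57 on STZ array 2.

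The brightest members held nearly the same place in both groups. BC166770 read 7.59 and 7.49 on the sham arrays and 7.52 and 8.42 on the STZ arrays. BC166798 read 7.43, 7.34, 7.59 and 8.53 in that order, and BC161988 7.29, 6.70, 7.23 and 8.25. In each of these STZ array 2 was the highest, and in BC166798 alone STZ array 1 also lay above both sham arrays. The other 5 of the 8 brightest, BC158811, BC158568, BC166816, BC064030 and BC098071, had array values from 4.83 to 7.73. Their differences ran from -0.89 for BC098071 to 0.75 for BC166816, and BC158568 was at -0.28. None of these 8 reached an unadjusted p of 0.05.

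Each other prefix had a few bright records. AY390380 read 4.79 and 4.90 in sham and 4.71 and 5.46 in STZ skin, a difference of 0.01. AB072253 read 5.37, 5.29, 5.34 and 6.13. AJ224880 read 4.68, 3.68, 4.40 and 5.86. In AY390380 and AJ224880 the groups overlapped, and in AB072253 STZ array 1 lay between the sham values. AF504920 read 2.64, 2.48, 3.13 and 5.52, and its groups did not overlap. Its difference of 1.54 ± 0.86 (SE, n = 2 arrays per group) had an adjusted p of 0.549 in limma.

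Differences between STZ and sham are given on the log2 scale relative to the median of all 21527 transcripts tested, which itself stood 0.23 higher in STZ. Over the 1410 members tested the median difference was 0.06, with quartiles of -0.46 and 0.73 and extremes of -4.45 and 5.17. At an unadjusted p below 0.05 in limma, 123 members (8.72%) were higher in STZ, against 7.3% of all transcripts tested. Of the 123, 17 were above background in no sham sample and entered the test only through the STZ group. Without such records 106 of 1383 members were higher. Lower were 32 members (2.27%), against 3.52% of all. After Benjamini-Hochberg adjustment over all transcripts tested no member and 0% of the array passed 0.05. The smallest adjusted p of a member was 0.102. The words higher and lower therefore give measured values here. Each array was also scaled to the median of the tested transcripts, a scale added after the data were seen. The printed differences between the groups instead have the median difference of all tested transcripts subtracted. On the median scale, 7 of the 1410 members and 131 of all 21527 transcripts tested had an adjusted p below 0.05 in limma. The members thus passed no more often than the array, and BC088255, among the 7, was tested only through the STZ group. The counts of members at the unadjusted threshold depended on single arrays. Without STZ array 1 they were 400 higher and 57 lower, and without sham array 2 they were 46 and 9. Without sham array 1 they were 83 and 7, and without STZ array 2 they were 94 and 36. The shares of all transcripts tested moved likewise when an array was left out. The split of member calls also moved with the scaling, from 79.4% higher to 62.8% after quantile normalisation, with 93 higher and 55 lower. These were 6.6% and 3.9% of the members, against 5.73% and 5.34% of all transcripts tested.

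Both STZ arrays exceeded both sham arrays in 415 tested members, against 26.8% of all transcripts tested, and both lay under both sham arrays in 215, against 17.9%. As shares of the 1410 members these counts were near the shares of the whole array, and nothing is read from them.

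By prefix, higher records outnumbered lower ones in each. BC had 59 higher (7.19%) and 24 lower (2.92%), AF 28 (12.5%) and 5 (2.23%), AB 7 (9.21%) and 2 (2.63%), and AY 9 (4.21%) and 1 (0.467%). AJ had 20 higher (26.7%) and 0 lower. Of the higher calls, 3 BC, 3 AY, 5 AF, 4 AJ and 2 AB records were above background in no sham sample. These were tested only through the STZ group. Without such records, higher were 56 of 815 BC, 6 of 207 AY and 23 of 218 AF records. For AJ it was 16 of 71 and for AB 5 of 72. AJ286820 had the smallest p among AJ records lower in STZ, at -1.77 and -0.92 in sham and -2.19 and -2.93 in STZ skin. Its difference was -1.44 ± 0.55 (SE), with an unadjusted p of 0.0761 in limma. The AJ count was 5 without sham array 2 and 47 without STZ array 1. The median difference was -0.08 for BC, -0.05 for AB, 0.18 for AF, 0.33 for AY and 0.75 for AJ. Among the remaining classes of the array, other GenBank prefixes had 19.1% higher and 1.95% lower at a median level of -4.78. MRAK records had 3.65% and 2.16% at -4.34, XR records 7.67% and 0.985% at -3.53, and NM records 7.72% and 4.46% at -1.16.

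The differences moved with signal level over the whole array. Among transcripts with a mean level below -6, the median difference was 1.02 over all tested and 0.92 over the 89 members there. From -6 to -4 it was 0.62 over all and 0.71 over 343 members, and from -4 to -2 it was 0.10 and 0.09. Above that it was below 0: -0.27 and -0.19 from -2 to 0, -0.34 and -0.29 from 0 to 2, and -0.29 and -0.43 at 2 or more. Dim transcripts were thus higher in STZ on the whole and bright ones slightly lower, for members as for the array.

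Set against transcripts of the same level, the prefixes drew together. The median was then 0.00 for BC, -0.04 for AF, 0.08 for AY, -0.12 for AB and 0.22 for AJ. The offset of dim transcripts was mostly that of one array. Below -6, the median difference from the sham mean was 0.40 on STZ array 1 and 2.19 on STZ array 2. From 0 to 2 it was -0.09 and -0.14. Unlike the medians over both STZ arrays, these values by array did not have the median difference of all tested transcripts subtracted. The part of the low overall signal of STZ array 2 in the differences of dim members was not tested. Another background correction, normexp with an offset of 50, shrinks differences of dim spots by construction, and left the AJ median at 0.43. Over all tested transcripts the median under normexp was 0.39 from -6 to -4 and 0.44 below -6.

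**Figure D2:**
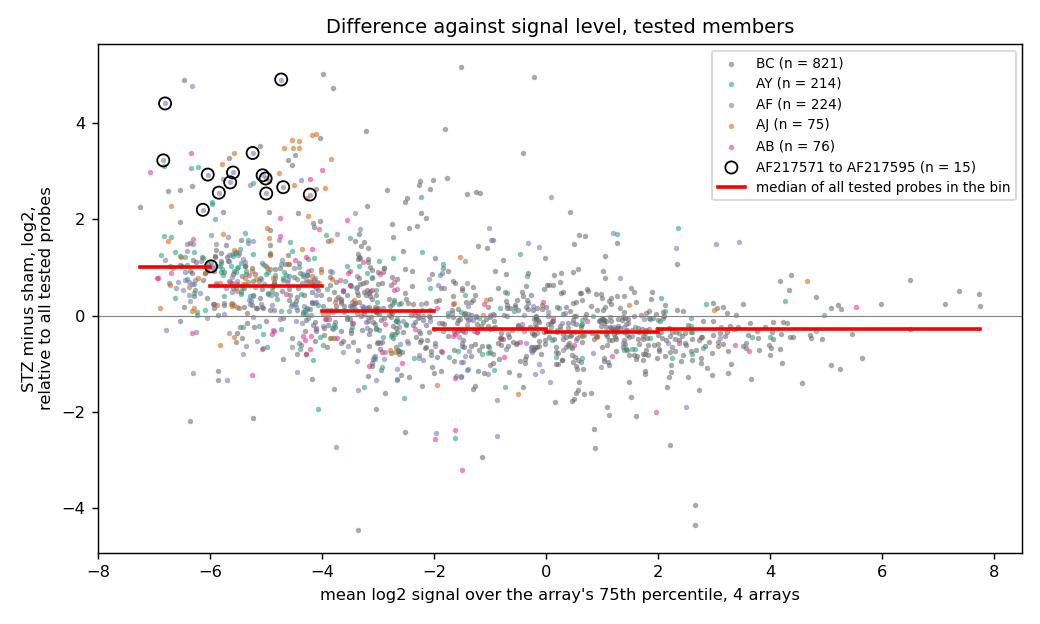
STZ minus sham on the log2 scale, relative to all tested transcripts (y axis), against the mean log2 signal over the 4 arrays (x axis) for the 1410 tested members, coloured by prefix, with the median of all tested transcripts in each of 6 level bins as a red line. The red line falls from 1.02 below -6 to -0.29 at 2 or more, and the circled records AF217571 to AF217595 have a median of 2.85, with 1 of 15 near the line.

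Among members with the smallest p whose arrays did not overlap between the groups, 12 in each direction are named. Those higher in STZ were mostly dim in sham skin. BC166774 read -2.10 and -3.55 on the sham arrays and 2.28 and 2.46 on the STZ arrays. Its difference was 4.96 ± 0.62 (SE, n = 2 arrays per group), with an adjusted p of 0.102 in limma, and 0.0404 on the median scale. It was thus below the 75th percentile on both sham arrays and well above it on both STZ arrays. BC158825 did the same, at -3.41 and -5.02 in sham and 1.54 and 0.82 in STZ skin. It had the largest difference of any member tested, 5.17 ± 0.69, with an adjusted p of 0.115 in limma, and 0.0455 on the median scale.

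Another set of records started near the limit of the assay. BC088254 read -6.55 and -6.66 in sham and -2.34 and -0.38 in STZ skin, a difference of 5.02 ± 0.75. On the median scale its adjusted p in limma was 0.0426. Its neighbour by number, BC088255, read -9.13 and -8.94 in sham and -4.75 and -3.07 in STZ skin. It was well above background in no sham sample, so only a lower bound on its change is given with the records of that kind. BC107452 read -6.19 and -6.38 in sham and -2.30 and -0.35 in STZ skin, a difference of 4.73 ± 0.74. On the median scale the adjusted p of BC107452 in limma was 0.0466. In BC088254, BC088255 and BC107452 STZ array 2 was the higher STZ array, by more than 1.5 on the log2 scale. Their sham arrays differed by less than 0.2. AF217588 read -8.66 and -8.46 in sham and -5.08 and -5.14 in STZ skin, so here the STZ arrays were alike. It too was well above background in no sham sample. Under normexp the differences were 2.65 for BC088254, 1.17 for BC088255 and 0.78 for AF217588, and the latter pair no longer had an unadjusted p below 0.05.

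The remaining members of the higher set had differences between 2.44 and 3.13. BC092643 read -6.16 and -6.28 against -3.28 and -2.44, and AB455106 -5.45 and -5.79 against -2.01 and -2.72. BC091273 read -4.36 and -4.16 against -1.51 and -1.33. In AB455106 STZ array 1 was the higher, in BC092643 and BC091273 STZ array 2. BC093389, BC092596 and BC091200 had differences of 2.44 ± 0.43, 2.56 ± 0.46 and 2.53 ± 0.46, with adjusted p-values of 0.154, 0.155 and 0.156 in limma.

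The members lower in STZ were brighter. BC161977 read 4.8 and 4.65 on the sham arrays and 0.91 and 0.29 on the STZ arrays, a difference of -4.35 ± 0.46 with an adjusted p of 0.102 in limma, and 0.0398 on the median scale. BC090338 read 4.62 and 4.40 in sham and 1.06 and 0.53 in STZ skin, a difference of -3.94 ± 0.45 with an adjusted p of 0.104, and 0.045 on the median scale, in limma. BC166504 read 3.52 and 3.39 in sham and 1.22 and 0.74 in STZ skin, a difference of -2.70 ± 0.44. All of these were among the bright transcripts of sham skin, remained above the 75th percentile in STZ skin, and had STZ array 2 below STZ array 1. Under normexp the differences were -4.42, -4.07 and -2.80.

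BC091437 read 2.05 and 2.23 against 0.24 and -1.03, and AF352172 read 0.24 and 0.28 against -1.37 and -2.64. Here the sham arrays differed by less than 0.2 and the STZ arrays by more than 1. BC168973, at -1.43 and -1.40 against -3.55 and -3.67, and AB073722, at -1.03 and -0.61 against -3.11 and -3.18, were dimmer and had like values within each group. BC092641 had the largest negative difference of any member, -4.45 ± 0.97, from -2.42 and -0.09 in sham and -6.23 and -4.72 in STZ skin. Its sham arrays differed by more than 2. BC089934, BC087722, BC099122 and BC103629 had differences of -2.06 ± 0.50, -1.90 ± 0.46, -1.74 ± 0.43 and -2.35 ± 0.61. These 4 and AF352172 no longer had an unadjusted p below 0.05 when either sham array was left out.

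**Figure D3:**
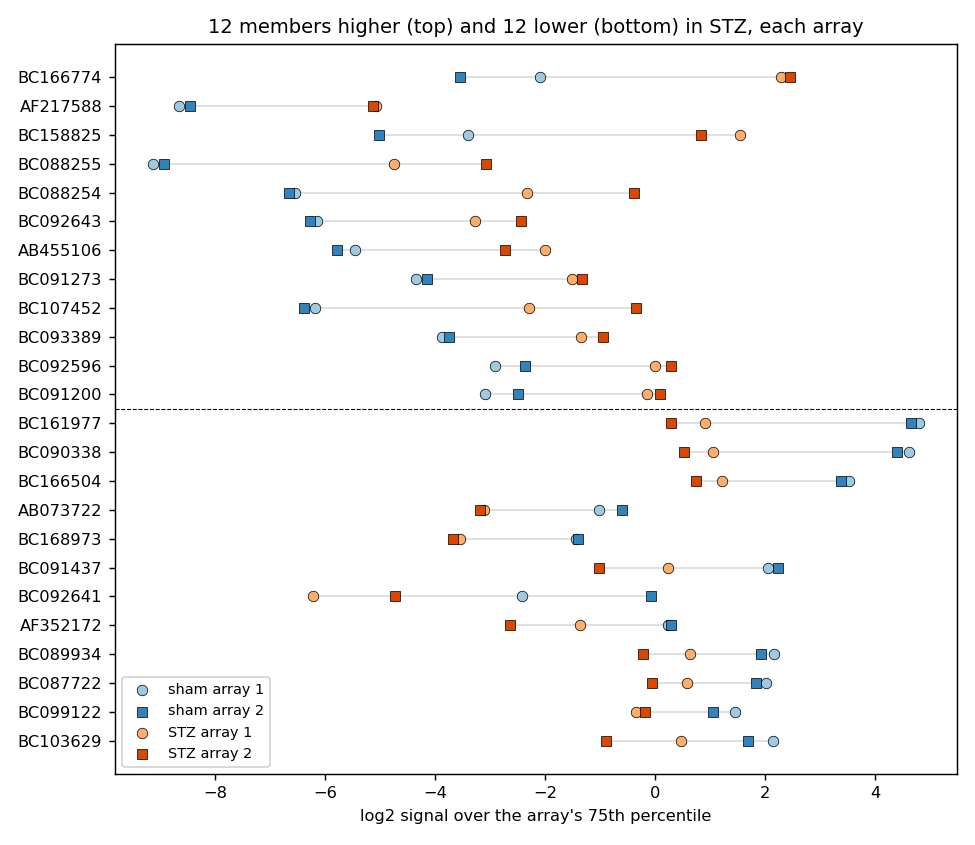
Log2 signal over the array's 75th percentile (x axis) on each of the 4 arrays for the 12 members higher and the 12 members lower in STZ with the smallest p (y axis, by accession), circles for array 1 and squares for array 2 of a group, sham in blue and STZ in orange. The sham and STZ symbols of each record do not overlap, which the choice of records required, and BC161977 runs from 4.8 and 4.65 in sham to 0.91 and 0.29 in STZ.

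Across all 123 higher members, the median size was 2.48, from 0.87 to 5.17, at a median level of -4.22. Of them 17 were above background in no sham sample. With these at their lower bounds, or with their own signal on sham arrays where it exceeded the lowest signal well above background, the median was 2.37. Above background in all 8 samples were 87, and 79 had both STZ arrays more than 1 above both sham arrays. STZ array 2 was the higher STZ array in 86 and STZ array 1 in 37. Under normexp 59 of them kept an unadjusted p below 0.05, and under quantile normalisation 90 did. The 32 lower members had a median size of 1.97, from 1.38 to 4.45, at a median level of 0.48. Of them 30 were above background in all samples, 29 had both STZ arrays more than 1 below both sham arrays, and 24 had their lowest value on STZ array 2. Under normexp 23 kept an unadjusted p below 0.05. The lower set was thus smaller, brighter and less often tied to the limit of detection.

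AY and AJ had no record among these 24. The AY record with the smallest p among those higher was AY228549, at -3.11 and -4.05 in sham and -1.09 and -0.66 in STZ skin, a difference of 2.48 ± 0.53 with an adjusted p of 0.185 in limma. The one lower was AY383707, at -0.24 and 0.03 against -1.40 and -1.34, a difference of -1.49 ± 0.42 with an adjusted p of 0.388 in limma. AJ536192 read -5.79 and -6.24 in sham and -4.03 and -3.89 in STZ skin, a difference of 1.83 ± 0.44. The STZ arrays of these 3 records differed by less than 0.5. AJ536192 missed an unadjusted p of 0.05 in limma without sham array 2, under normexp (0.0629) and under quantile normalisation (0.0583). AY383707 missed it without either sham array, without STZ array 1, under normexp (0.0563) and with the array number as a replicate block (0.0772).

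Some records were seen in one group only. Above background in all STZ samples and in no sham sample were 27 members (1.7%), against 1.43% of all transcripts. The shares were near each other, and the records are described for their values alone. By prefix they were 6 BC, 7 AY, 6 AF, 4 AJ and 4 AB. The reverse held for 1 member, BC158802, against 0.0972% of all. It read -5.84 and -4.93 in sham and -8.18 and -6.49 in STZ skin, and was at least 2.95-fold lower in STZ. A bound such as this compares the brighter group's mean with the lowest signal well above background on each dim array, on the 75th percentile scale. That lowest signal was -7.56 and -7.45 on the sham arrays, -7.57 on STZ array 1 and -6.32 on STZ array 2. The detection limit of the STZ array 2 was thus higher on this scale, and BC158802 had a difference of only -0.12 under normexp. Its unadjusted p was no longer below 0.05 under normexp, with no detection filter, in the first scans alone, or when either sham array or STZ array 1 was left out.

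Of the 12 such members with the largest differences, AF220555 stood out by its arrays. It read -8.74 and -8.94 in sham, -5.90 on STZ array 1 and -1.76 on STZ array 2, so that it stood at least 12.8-fold higher in STZ skin, but at least 3.05-fold with STZ array 2 left out. BC088255 was at least 12.1-fold higher, AF217590 at least 8.12-fold, AF217588 at least 5.27-fold, AY318957 at least 5.06-fold and AB115746 at least 4.12-fold. With STZ array 2 left out these bounds were 6.75, 1.83, 5.38, 2.75 and 2.67 in that order. With STZ array 1 left out they were 21.6, 36, 5.16, 9.32 and 6.37, and 53.8 for AF220555. AY318957 read -8.09 and -8.90 in sham and -6.05 and -4.28 in STZ skin. In the other 6 the sham signal itself, though not well above background, exceeded that lowest signal on at least 1 sham array. In AF217593 and AJ286216 it did so on both sham arrays, so no lower bound could be set. Their measured ratios were 35.2-fold and 12.3-fold. Their log2 differences relative to all tested transcripts were 4.91 and 3.39, and under normexp 2.13 and 1.11. In the rest it did so on 1 sham array, and their own signal was used there. No strict lower bound could therefore be set for them either. The ratios so formed were 9.01-fold for AJ276838, 7.83-fold for AB036696, 6.39-fold for AY903242 and 5.81-fold for AY669088. With STZ array 2 left out the ratios of these 6 were 12.9, 5.19, 5.03, 2.37, 6.42 and 5.78. With STZ array 1 left out they were 96.2, 29.0, 16.1, 25.8, 6.35 and 5.83. AY903242 and AY669088, by their ratio, and AF217588, by its bound, were thus the records that hardly moved with the array. Under normexp all of the 12 but AF217593 missed an unadjusted p of 0.05. AF217590 also missed it without either sham array, and AB036696 without sham array 2.

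Records with neighbouring accession numbers were then read side by side. Runs of 6 or more members whose numbers lay at most 10 apart were formed. This rule was set after values had been seen, so runs are described and not tested. There were 64 such runs, which held 802 members. Another 399 members lay in 145 runs of 2 to 5 members, and 389 had no neighbour within 10. Whether records of a run share sequence was not tested. Run medians spread from -1.23 to 2.85.

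**Figure D4:**
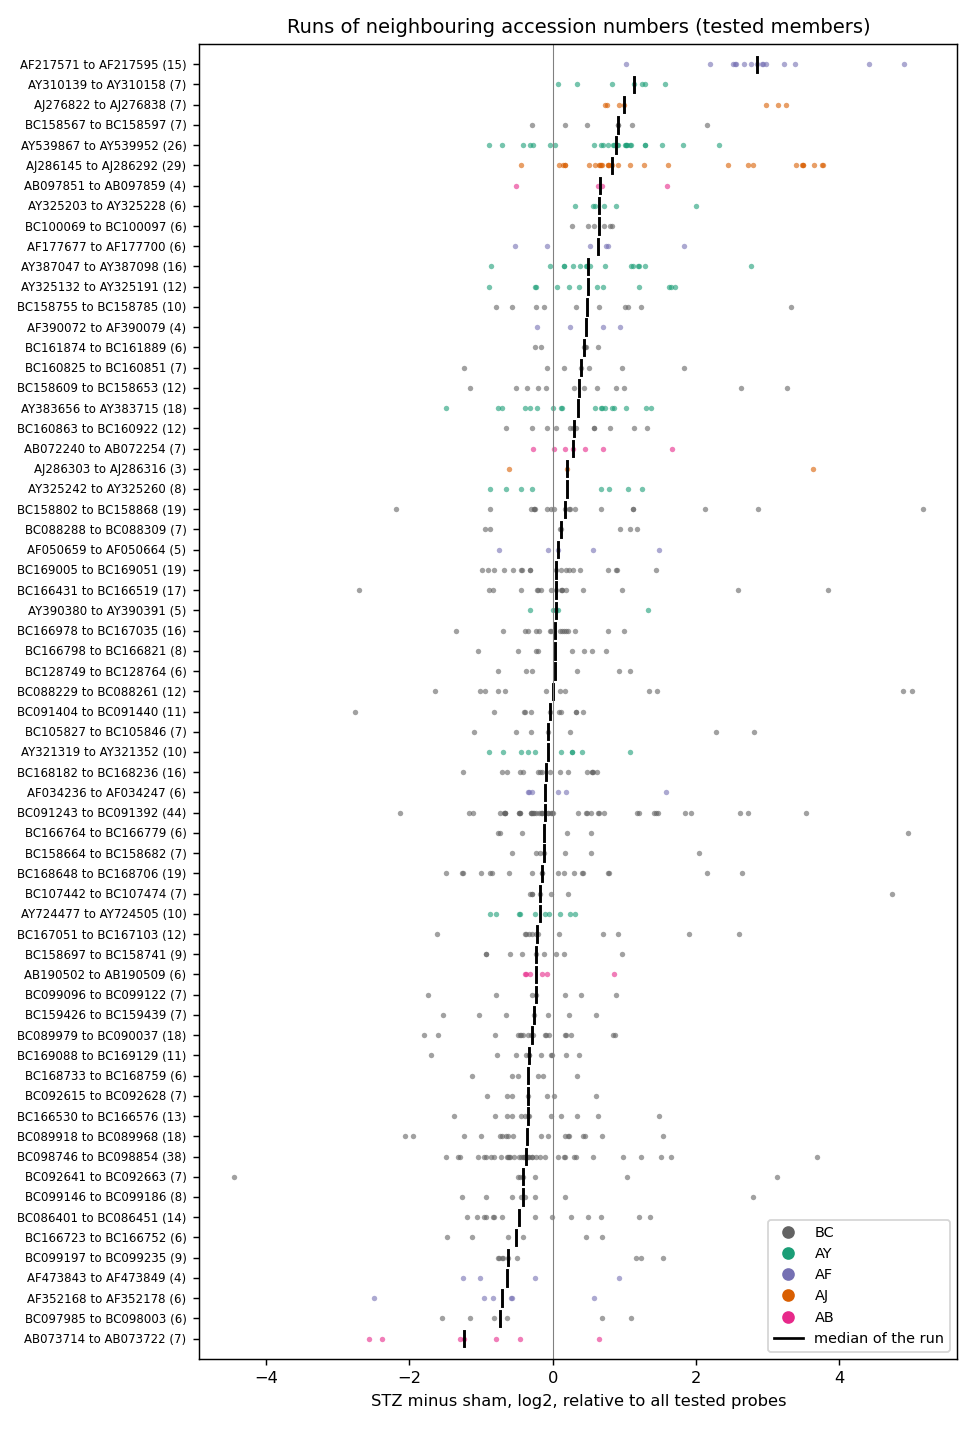
STZ minus sham on the log2 scale, relative to all tested transcripts (x axis), for each tested member of the runs of 6 or more neighbouring accession numbers (y axis, with the number tested in brackets), coloured by prefix, with the run's median as a black bar. AF217571 to AF217595 stand at the top with a median of 2.85, AY310139 to AY310158 follow at 1.14, and AB073714 to AB073722 are lowest at -1.23.

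The run AF217571 to AF217595 had the highest median. It held 16 records, of which 15 were tested and AF217573 was above background in no sample. Of the 15, 12 were higher in STZ at an unadjusted p below 0.05 in limma and 0 were lower. However, AF217576, AF217580, AF217588, AF217590 and AF217593 were above background in no sham sample and entered the test only through the STZ group, so a difference was built into them. Without these 5, 8 of 10 records were higher at that threshold, with a median difference of 2.72 and values from 1.03 for AF217571 to 3.38 for AF217591. The run itself was picked for its values, so these counts describe it and support nothing further. In 14 of the 15 both STZ arrays exceeded both sham arrays. The median over the 15 was 2.85. It was 2.67 with those 5 at their lower bounds, or with their own signal on sham arrays where it exceeded the lowest signal well above background. Relative to all tested transcripts of the same level the median was 2.16. These records were dim, with a median level of -5.62.

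Inside the run the arrays kept a common order. The median record read -7.02 and -7.06 on the sham arrays, -5.08 on STZ array 1 and -2.24 on STZ array 2. AF217593 read -7.24 and -7.35 in sham, -3.61 on STZ array 1 and -0.71 on STZ array 2. AF217590 read -9.15 and -9.09 in sham and -6.63 and -2.34 in STZ skin. STZ array 2 was highest in all of the 15 but AF217588, whose STZ values lay within 0.1 of each other, and STZ array 1 lay between it and both sham arrays in all others but AF217571. AF217571 had its groups overlapping, at -7.06 and -6.16 against -6.27 and -4.44.

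The run's values changed with processing. The median over records was 1.73 for STZ array 1 minus the sham mean and 4.44 for STZ array 2. Neither of these values had the median difference of all tested transcripts subtracted. The median difference was 1.05 under normexp and 2.33 under quantile normalisation, and 1.70 without STZ array 2. Under normexp 1 record had an unadjusted p below 0.05 in limma. Requiring all 8 samples above background left only AF217572, AF217578, AF217582 and AF217594 to test. All 4 were past that threshold, with a median of 2.68. Without the run, the AF prefix had 16 of 209 records higher (7.66%) and a median of 0.05, beside 7.3% higher over the array.

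**Figure D5:**
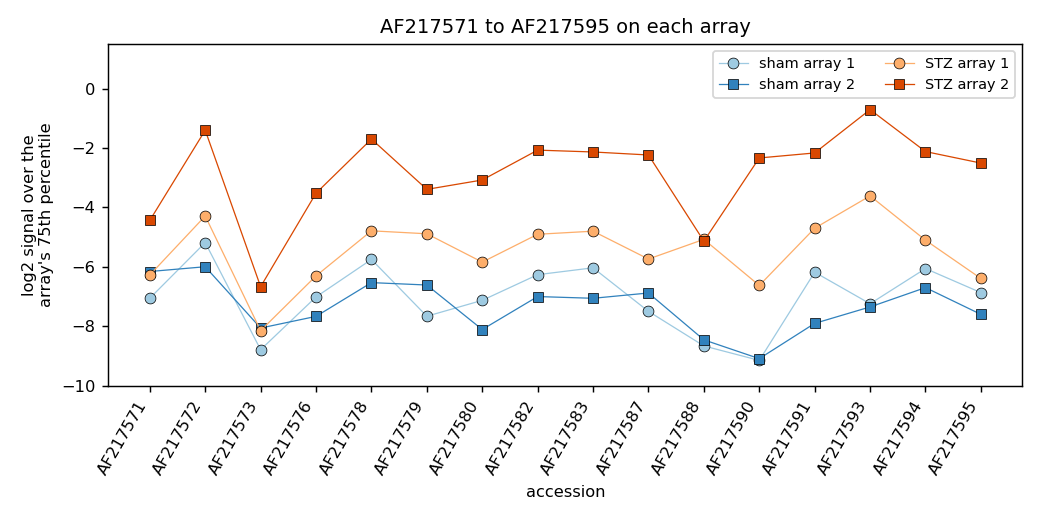
Log2 signal over the array's 75th percentile (y axis) of the 16 records AF217571 to AF217595 (x axis, in order of number) on the 4 arrays, sham in blue and STZ in orange, circles for array 1 and squares for array 2. The line of STZ array 2, with a median of -2.24 over the tested records, lies above STZ array 1 at -5.08, which lies above the sham arrays at -7.02 and -7.06 for most records.

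AJ286145 to AJ286292 was the longest run, with 66 of the 132 AJ records. Only 29 were tested, and 30 were above background in no sample. Of the 29, 11 were higher in STZ at an unadjusted p below 0.05 and 0 lower, with a median of 0.82 and a range of -0.44 to 3.77. AJ286216, among the 11, was above background in no sham sample and was tested only through the STZ group. Without it 10 of 28 were higher, with a median of 0.80. The records fell apart by size: 10, AJ286216 among them, had differences of 2.45 or more, AJ286155 followed at 1.61, and 16 lay below 1. The 10 large ones read -7.39 to -5.36 on sham array 1, -7.38 to -5.84 on sham array 2, -5.01 to -3.61 on STZ array 1 and -2.52 to -0.59 on STZ array 2. In each of them STZ array 2 was highest and STZ array 1 lay between it and the sham arrays. Some had near-equal values on every array. AJ286163 read -5.97 and -6.37 in sham and -3.61 and -0.77 in STZ skin, and AJ286290 -5.77 and -6.43 against -3.62 and -0.59. AJ286248 read -6.14 and -6.40 against -4.04 and -1.07, and AJ286208 -6.14 and -6.59 against -4.15 and -1.15. On each of the 4 arrays these 4 records, picked after their values were seen, lay within 0.6 of each other. AJ286195, at -5.60 and -5.33 against -5.76 and -5.60, had no such difference. It was brighter than these 4 on both sham arrays, and was also picked after its values were seen. Without the run, AJ had 9 of 46 records higher (19.6%) and a median of 0.63.

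Smaller runs repeated parts of this. In AJ276822 to AJ276838, 7 of 13 records were tested and the median was 1.0. AJ276825 read -5.37 and -5.79 in sham, -3.52 on STZ array 1 and -0.69 on STZ array 2, a difference of 3.25. AJ276824 was at 2.97, AJ276838 was above background in no sham sample, and the other 4 tested at 0.73 to 1.0. AY310139 to AY310158 had a median of 1.14 over 7 tested records with 1 higher at an unadjusted p below 0.05. AY539867 to AY539952, the longest AY run, had 26 of 30 tested, a median of 0.88 and 0 records past that threshold in either direction. There the median record differed from the sham mean by 0.18 on STZ array 1 and by 2.05 on STZ array 2. These values by array also did not have the median difference of all tested transcripts subtracted.

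Few runs lay below 0 by much. AB073714 to AB073722 had a median of -1.23 over 7 records, from -2.56 for AB073722 to 0.64 for AB073715. AB073720 read -1.03 and -0.07 in sham, -1.38 on STZ array 1 and -4.03 on STZ array 2, a difference of -2.39, so one array carried most of it. Only AB073722 reached an unadjusted p below 0.05. BC097985 to BC098003 had a median of -0.73 and AF352168 to AF352178 of -0.71. AY724477 to AY724505 was a bright run, with a median level of 1.95. Its 10 records had differences from -0.87 to 0.31, and none passed the threshold.

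Most BC runs stayed near the array. BC091243 to BC091392, with 44 tested records, had a median of -0.11 and 5 higher at an unadjusted p below 0.05, and BC098746 to BC098854, with 38, had a median of -0.37 and 4 higher. BC088229 to BC088261 held the adjacent BC088254 and BC088255, both among the 12 named as higher, and its median over 12 tested records was 0.01.

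The STZ arrays differed from each other more than the sham arrays did. Gaps in this paragraph are on the log2 scale, relative to the median gap of all transcripts tested, and not on the 75th percentile scale. Over the tested members the median absolute gap was 0.80 between the STZ arrays and 0.44 between the sham arrays, against 0.74 and 0.44 over all transcripts. STZ array 2 was higher than STZ array 1 by more than 2 in 108 members (7.66%, all transcripts 5.57%), and lower by more than 2 in 36 (2.55%, all 2.53%). Among AJ records the first count was 17 of 75, or 22.7%. In 35 members the sham arrays differed by more than 2.

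The widest gaps show records that a group mean would hide. AB218812 read -4.37, -5.64 and -5.67 on sham arrays 1 and 2 and STZ array 1, and -1.46 on STZ array 2. AB013453 read -5.44, -6.06 and -4.66 on those arrays and -0.71 on STZ array 2. In AB218812 the other 3 arrays lay within 1.5 of each other, and in AB013453 STZ array 1 also lay above both sham arrays. AY429596 read -0.57 and 2.12 in sham and 2.10 and -0.90 in STZ skin, so each group held a high and a low array. AF199337 did likewise, at -3.75 and -6.28 in sham and -3.66 and -6.97 in STZ skin. For such records the arrays within a group differed by more than the group means did.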

How the data were processed

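The deposited files hold 1 scan each of 1-colour Agilent arrays, read by Feature Extraction version 11.0.1.1 per the file headers and 11.0.0.1 per the submitters' processing notes. The intensity used was the processed signal, background-subtracted by the authors' software per the file headers. The deposited detection calls, a flag for spots well above background, and the outlier flags were other values used as given. No genome build is used.

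From these, log2 intensity minus the 75th percentile of all noncontrol spots of the scan was averaged over a probe's spots without outliers, and then over both scans of an array. Transcripts with a majority of spots well above background in at least 4 of 8 samples were tested with lmFit and eBayes of limma 3.58.1 in R 4.3.3, on 2 sham and 2 STZ arrays, two-sided, with Benjamini-Hochberg adjustment over all 21527. Printed differences between the groups have the median of all tested subtracted, while p-values test the 75th percentile scale. Differences of each STZ array from the sham mean are printed without that subtraction. The procedure was tested on simulated data. Arrays limit the precision by their number, 2 per group.

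Members and marker lists were chosen with earlier results of these data known. Members named were the 12 higher and 12 lower with the smallest p and no overlap, the 8 brightest, each prefix's brightest and smallest p in each direction, and up to 12 each way above background in one group only. A rule for records sharing an accession found none. Rules for records sharing a gene could not be applied, since no member's accession stood in the RefSeq gene table. Whether members share genes with each other or with other probes was thus not tested. Accession runs, records with the widest gaps between arrays and the other run members were chosen after their values were seen. Marker lists for skeletal muscle, mast, Schwann, endothelial, fibroblast, keratinocyte and melanocyte genes were also read. Past an unadjusted p of 0.05 were 0 of 7 muscle, 0 of 7 mast cell and 0 of 3 melanocyte genes. In Schwann cells 3 of 7 were lower, in endothelium 1 of 4 and in fibroblasts 1 of 6 higher, and in keratinocytes 1 of 3 lower. The keratinocyte and fibroblast genes found were above background in all 8 samples.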

Additional observations from a re-analysis of the deposited data

How the results depend on the processing

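With 2 arrays per group, counts of members past an unadjusted p of 0.05 moved with single arrays, and shares of all transcripts moved likewise. Leaving out each array in turn gave 46 to 400 members higher and 7 to 57 lower, 5 to 47 AJ records higher and 3 to 15 of AF217571 to AF217595 higher. Normexp gave 63 higher members, 5 AJ records, and 1 record of AF217571 to AF217595, whose median was 1.05. The 63 were 4.47% of the members tested, against 4.3% of all transcripts. The offset of normexp shrinks dim differences. Requiring all 8 samples above background left 12 AJ records higher, with fewer records tested. It left 4 of AF217571 to AF217595 higher, which were all the records of that run so tested. Quantile normalisation gave 55 lower (3.9%, all transcripts 5.34%). Treating 8 scans as samples gave 382 higher (27.1%, all 24.7%), 187 lower (13.3%, all 15.4%) and 33 AJ records higher, since scans of one array are no replicates. For other changes the cause was not tested.

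Reversals were few and small. BC166770 went to -0.0713 under normexp, and from -0.0519 to 0.505 leaving out arrays. AY390380 went to -0.17 under normexp, to -0.13 without the filter, and from -0.17 to 0.23 leaving out arrays. Leaving out arrays, BC158568 went from -0.647 to 0.0828 and AB072253 from -0.0219 to 0.412. None of these had passed the threshold. Of 51 named members, 14 lost an unadjusted p below 0.05 under normexp.

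With the array number as a replicate block, 119 members were higher (8.44%, all transcripts 7.28%) and 23 lower (1.63%, all 2.74%). Arrays of one number deviated in opposite ways (correlation -0.20), and the crossed pairing, added after seeing the data, gave 154 and 39. These were 10.9% and 2.77%, against 9.67% and 3.54% of all transcripts. The block with the slide was not run, since 1 slide holds all arrays. With the median of tested transcripts as the scale, also added later, 119 were higher (8.44%, all 6.91%) and 40 lower (2.84%, all 4.29%). On that scale 131 transcripts, among them 7 members (BC088254, BC088255, BC090338, BC107452, BC158825, BC161977 and BC166774), had an adjusted p below 0.05 in limma. Of these, BC088255 was above background in no sham sample and was tested only through the STZ group. The number of members above background and the median difference of the members moved by less than 1.5 times and by less than the spread between arrays, respectively, under all alternatives run.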
